A study of Mus musculus with 5 samples.

Results

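TAM 3 is 1 of the 3 tumour-associated macrophage (TAM) classes that the authors annotated in CT26 tumours, taken here as every CT26 cell that carries this name in the deposited annotation, joined by its barcode. It held 959 of the 8987 annotated CT26 cells (10.7%) and 18.5% of the 5180 monocytes and TAMs (exact 95% interval 17.5% to 19.6%, counting error only). The other classes of that population were TAM 1 (447 cells), TAM 2 (1113), Monocyte 1 (602), Monocyte 2 (821) and Monocyte 3 (1238). CT26 is a colon carcinoma line of BALB/c origin, grown in BALB/c mice for 12 days. No treatment is given for these mice, although the library's name holds the word vehicle. Live cells with the leukocyte protein CD45 were sorted and sequenced as 1 droplet library from the 3' ends of transcripts. Comparison libraries came from 5555 melanomas in C57BL/6 mice on day 4: Ptgs-/- tumours of mice depleted of NK cells with anti-Asialo GM-1 together with anti-NK1.1 (clone PK136), untreated Ptgs-/- tumours, and untreated Ptgs+/+ tumours. Ptgs genes encode the cyclooxygenases, and the labels place the deletion in the tumour cells. The series holds 31671 cells in 5 libraries. With 1 library for each tumour there is no replicate check: every value describes these libraries, and no test or p-value is given.

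Tumour-associated macrophages arise largely from blood monocytes that enter the tumour through the chemokine receptor CCR2, lose monocyte genes and gain genes for phagocytosis, complement and antigen presentation. A part of the macrophages in healthy tissue is long-lived, and genes such as Folr2, Lyve1, Cd163, Timd4 and Selenop are commonly read as features of such resident cells. Inflammatory genes of macrophages are driven largely by NF-kB, which also induces its own inhibitors (Nfkbia, Tnfaip3), whereas genes such as Ifit1 and Isg15 answer to type I interferon through the interferon-stimulated response element (ISRE).

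Genes of both kinds were high in TAM 3. Its level was above the mean of the other 5 classes for resident-like genes (Cbr2, Selenop, Ccl8, Folr2), for NF-kB feedback and inflammatory genes (Nfkbia, Tnfaip3, Cxcl1, Cxcl2, Il1b, Tnf) and for MHC class II (H2-Aa, Cd74), and below it for type I interferon genes (Ifit1, Ifit3, Isg15) and for Spp1. Against Monocyte 2 the type I interferon median was -2.89, against TAM 2 -0.70 and against Monocyte 3 -0.24. It was 0.27 over TAM 1 and 0.47 over Monocyte 1. TAM 2 was the most similar class. The inflammatory and MHC class II lists were higher in TAM 3 than in TAM 2. The order of the resident-like genes between these classes turned when only cells of similar depth were compared.

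The sequences below come from the promoters of genes that stand for these opposed groups. An NF-kB site is shown for genes above the mean of the other 5 classes. An ISRE is shown for genes below it, mainly through Monocyte 2. The sequences are the coding strand from 5' to 3' of the RefSeq promoter windows on GRCm38.p6 (250 bases before to 50 after each gene's start). Each is cut to 60 bases around its first match, which alone is in capitals. The windows held 2 matches for Cxcl1, Cxcl2, Ifit1 and Ifit3, 1 for Nfkbia and 3 for Isg15. Further matches are not marked, and those of Cxcl1, Cxcl2, Ifit1 and Isg15 run into the lower case shown. The NF-kB motif was searched as GGGA, any 2 bases and TTCC, and the ISRE as GAAA, any 2 bases and GAAA, each on both strands, and matches of the pair overlapped in 1 of all the windows.

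Cxcl1, chr5:90891149-90891208, plus strand: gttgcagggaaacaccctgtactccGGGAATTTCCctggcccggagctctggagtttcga
Cxcl2, chr5:90903777-90903836, plus strand: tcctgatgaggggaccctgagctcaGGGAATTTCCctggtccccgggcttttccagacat
Nfkbia, chr12:55492642-55492701, minus strand: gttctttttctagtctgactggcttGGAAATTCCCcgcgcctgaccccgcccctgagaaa
Ifit1, chr19:34640760-34640819, plus strand: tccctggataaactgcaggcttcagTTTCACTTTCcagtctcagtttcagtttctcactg
Ifit3, chr19:34583348-34583407, plus strand: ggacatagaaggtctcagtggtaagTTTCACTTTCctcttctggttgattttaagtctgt
Isg15, chr4:156200862-156200921, minus strand: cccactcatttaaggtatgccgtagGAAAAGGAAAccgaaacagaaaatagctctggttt

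The NF-kB motif was in the windows of 4 of the 11 inflammatory cytokine genes that had one in the table (Il6, Cxcl1, Cxcl2 and Cxcl3), in 2 of 9 NF-kB feedback genes (Nfkbia and Nfkb2), in 0 of 10 resident-like genes and in 1 of 11 type I interferon genes (Ifit2), against 1.47% of all 32851 windows and 1.63% of all 27025 gene symbols. The ISRE was in 5 of 11 type I interferon genes (Isg15, Ifit1, Ifit3, Rsad2 and Oas1a) and in 1 of 10 resident-like genes (Selenop), against 3.44% of all windows and 3.99% of all symbols. The search took every list member with a window, whether or not it was among the genes measured below. Il6, for one, was in too few cells to be measured. These matches describe letters in a window and do not show that a factor was bound.

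Depth differed between the classes. The median was 4380 UMIs (unique transcript molecules) per cell in TAM 3, with a range of 2216 to 7968, against 8550 in TAM 1, 7771 in TAM 2, 3390.5 in Monocyte 1, 3268 in Monocyte 2 and 3802.5 in Monocyte 3, and the library held 39748547 UMIs. Between this library and the 5555 libraries, 9, 7 and 7 cell barcodes were shared (NK-depleted Ptgs-/-, Ptgs-/- and Ptgs+/+), of which 1, 1 and 0 were TAM 3 cells. Levels are mean CPM over the cells of a class, that is UMI counts scaled to the same total in every cell, and a fold is the difference of log2(mean CPM + 5) between TAM 3 and the mean of the other 5 class means, unless another class is named. Reads of near-identical genes (Ifit3 and Ifit3b, Lyz1 and Lyz2, Mgl2 and Clec10a, the Serpina3 and Gbp families) may have been split by the authors' counting, so their values are less certain.

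The annotated name was checked on macrophage markers. Csf1r, the receptor for macrophage colony-stimulating factor, averaged 379 CPM in TAM 3 and had a UMI in 77.1% of its cells, Apoe in 91.4%, Fcgr1 in 89.2% and Cd68 in 80.2%. Adgre1 (F4/80) had a UMI in 48.1% and the complement gene C1qa in 31.1% of TAM 3 cells. The 12 macrophage markers summed to 8913 CPM in TAM 3, against 1513 in TAM 1, 10495 in TAM 2, 6229 in Monocyte 1, 7647 in Monocyte 2 and 12225 in Monocyte 3. Monocyte markers were still present: Ly6c2 had a UMI in 81.5% and Ccr2 in 93.2% of TAM 3 cells, and the 12 monocyte markers summed to 8707 CPM, against 6760 in TAM 1, 7383 in TAM 2, 12537 in Monocyte 1, 15691 in Monocyte 2 and 8902 in Monocyte 3. F13a1 and Vcan were highest of the 6 classes in TAM 3, whereas Chil3 (-1.29) and Hp (-1.21), genes of newly arrived monocytes, were lower than the mean of the other classes.

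Free RNA was gauged in T cells and NK cells of the same library, which should lack macrophage transcripts. With every cell reduced to 1000 UMIs (77 T cells and 47 NK cells were too shallow and left out), Csf1r had a UMI in 32.0% of TAM 3 cells, against 0.58% of T cells and 0.924% of NK cells. The unreduced shares of Csf1r were 77.1% in TAM 3, 0.913% in T cells and 2.01% in NK cells, at median depths of 4380, 1706 and 2241 UMIs. Cd36 was in 16.1% of reduced TAM 3 cells, against 0.077% of NK cells, and Selenop in 35.2% of reduced TAM 3 cells, against 11.4% of T cells and 4.08% of NK cells. The Ccr2 share, 55.7% in reduced TAM 3 cells, was close to the 51.9% of NK cells and 46.1% of T cells, which can express Ccr2 themselves, so it says little of TAM 3.

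Of other lineages, single defining markers had no UMI while the lists were not at 0. B cell markers Cd79a, Ms4a1, Pax5 and Fcmr, the T cell gene Cd8a, the NK receptor Klra8, the neutrophil gene Camp and the epithelial genes Krt8 and Krt18 had no UMI in any TAM 3 cell, which allows a level of up to 0.70 CPM over the class (3 counts, counting error only). Red cell genes summed to 0.916 CPM in TAM 3 against 545 CPM in TAM 1, and the 10 tumour and stroma markers to 28.6 CPM in TAM 3 and 8.49 to 43.8 CPM in the other classes. The 9 neutrophil markers present in the matrix summed to 271 CPM in TAM 3, against 109 in TAM 1, 179 in TAM 2, 301 in Monocyte 1, 213 in Monocyte 2 and 161 in Monocyte 3. The 7 B cell markers summed to 80.9 CPM in TAM 3, through Ighm (0.70), against 10.7 to 85.2 CPM in the other classes. The plasmacytoid dendritic cell markers summed to 592 CPM and the platelet markers to 732 CPM in TAM 3, mostly through Bst2 and Pf4, which macrophages also express.

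The same 5355 genes, those with a UMI in at least 10% of TAM 3 cells or of the other monocytes and TAMs, were counted in each comparison. Against the mean of the other 5 classes, 49 genes were at least 2-fold higher in TAM 3 (0.915%) and 54 at least 2-fold lower (1.01%), and the median over all counted genes was 0.03 on the log2 scale. On the difference of mean log2(CPM + 1) per cell, which weighs the share of expressing cells more, 117 were higher and 64 lower, with a median over all counted genes of -0.12. TAM 3 had the highest level of the 6 classes for 908 counted genes (17%) and the lowest for 379 (7.08%). Few genes were thus far from the mean of the other classes, and the counts against each single class are given below.

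The 15 leading genes, ranked by their fold and in at least 10% of TAM 3 cells, began with Id3, an inhibitor of basic helix-loop-helix transcription factors that tissue macrophages use. Id3 averaged 140 CPM in TAM 3, against 12.2 in TAM 1, 45.5 in TAM 2, 69.1 in Monocyte 1, 41.3 in Monocyte 2 and 26.8 in Monocyte 3, a fold of 1.72. It had a UMI in 28.3% of TAM 3 cells and in 11.2% of the other monocytes and TAMs. Cxcl1, a chemokine that attracts neutrophils, followed with 513 CPM in TAM 3, against 338 in TAM 1, 197 in TAM 2, 131 in Monocyte 1, 23.6 in Monocyte 2 and 79.0 in Monocyte 3 (1.71). Its TAM 3 level exceeded every other class, and Monocyte 2 stood lowest.

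Cd36, a scavenger receptor for oxidised lipids and dying cells, averaged 206 CPM in TAM 3, against 91.0 in TAM 1, 120 in TAM 2, 21.5 in Monocyte 1, 20.4 in Monocyte 2 and 93.6 in Monocyte 3 (1.51). Tppp3, which encodes a tubulin polymerisation-promoting protein, had 327 CPM in TAM 3, against 54.9 to 201 CPM in the other classes (1.52). Cd83, a surface protein of activated antigen-presenting cells, had 504 CPM in TAM 3, against 134 to 333 CPM elsewhere (1.25), and Tnfaip2, a gene induced by tumour necrosis factor, 450 CPM, against 86.6 to 254 CPM (1.19). The remaining leading genes were Serpina3g (1.29), a serine protease inhibitor, Sgms1 (1.28), a sphingomyelin synthase, Psd3 (1.27), Stxbp6 (1.26), Rgl1 (1.24) and Dirc2 (1.21), with Cbr2, Ednrb and Selenop described with the resident-like genes. TAM 3 was the highest of the 6 classes for 13 of the 15, which the ranking itself favours, and stood behind TAM 2 for Cbr2 and Ednrb. Just outside the 15 lay Trim47 (1.18) and Mertk (1.17), beside Tnfaip2 (1.19) just inside.

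**Figure D1:**
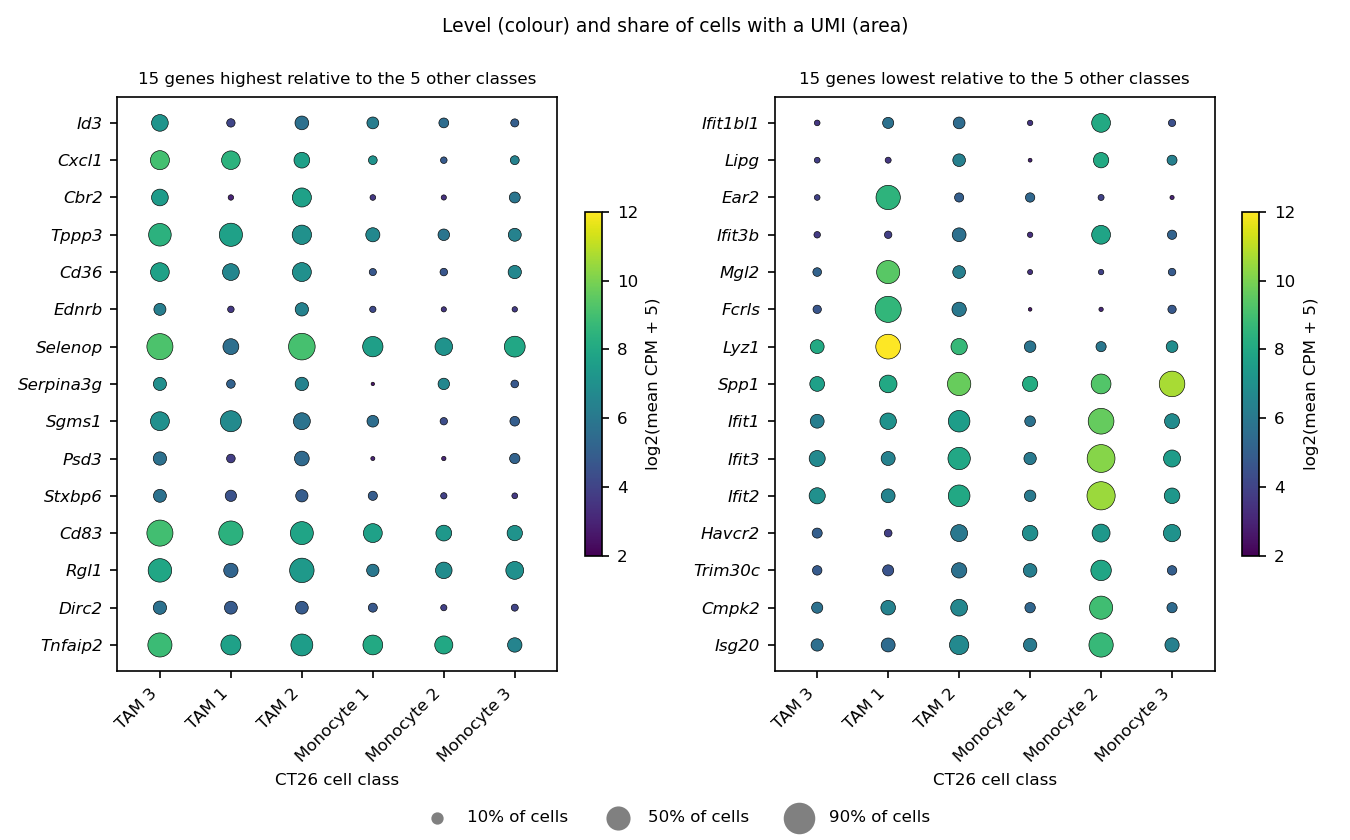
Mean level, as log2(mean CPM + 5), of the 15 leading and the 15 lowest genes in TAM 3 and in the other CT26 monocyte and TAM classes, 1 point per class and gene. TAM 3 is the highest class for 13 of the 15 leading genes, and for most of the lowest genes Monocyte 2 or TAM 1 stands far above the other classes.

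Resident-like genes formed the list with the highest median, 1.04 over its 10 measured members of 12 (measured means a UMI in at least 5% of TAM 3 cells or of the other cells). Of these 10, 7 were at least 1.5-fold higher and 0 lower, where 4.4% of all 7281 genes measured in that way were 1.5-fold higher and 3.42% lower. Selenop, which encodes the selenium carrier selenoprotein P, averaged 577 CPM in TAM 3, against 44.1 in TAM 1, 519 in TAM 2, 188 in Monocyte 1, 136 in Monocyte 2 and 244 in Monocyte 3 (1.33). Cbr2, a carbonyl reductase, had 170 CPM in TAM 3, against 3.12 in TAM 1, 202 in TAM 2, 7.67 in Monocyte 1, 6.19 in Monocyte 2 and 53.9 in Monocyte 3 (1.56).

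TAM 3 and TAM 2 were thus both high in Cbr2 and Selenop, and TAM 1 was the lowest class for both. Ccl8, a monocyte chemoattractant, averaged 557 CPM in TAM 3, against 7.39 in TAM 1, 1004 in TAM 2, 17.9 in Monocyte 1, 59.4 in Monocyte 2 and 148 in Monocyte 3 (1.16). It came from few cells, with a UMI in 19.7% of TAM 3 cells and 82.1% of the summed level in the 5% of cells with the most. Folr2, a folate receptor, had 177 CPM in TAM 3, against 27.3 in TAM 1, 246 in TAM 2, 1.57 in Monocyte 1, 19.1 in Monocyte 2 and 134 in Monocyte 3 (1.01). Against each class in turn, the median of the resident-like list was 2.55 over TAM 1, -0.35 against TAM 2 (0.31 in cells of matched depth, described with the TAM 2 comparison), 3.07 over Monocyte 1, 2.57 over Monocyte 2 and 1.14 over Monocyte 3. Ednrb, an endothelin receptor outside the list, was likewise high in these classes, with 70.9 CPM in TAM 3 and 81.8 CPM in TAM 2, against at most 13.5 CPM in the other 4 classes.

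Genes for the uptake of dying cells and for complement were moderately higher. Of 11 measured efferocytosis and scavenger receptor genes, 4 were 1.5-fold higher and 0 lower (median 0.30), namely Cd36, Mertk (1.17), Gas6 (1.30) and Timd4 (1.07). Gas6, a bridging ligand for dying cells, and Timd4, a receptor for them, are also in the resident-like list. Mertk, a receptor that recognises dying cells through Gas6, was at a low level throughout, with 30.0 CPM in TAM 3 against 3.31 to 16.4 CPM in the other classes. Of 13 measured complement genes 4 were higher and 0 lower (median 0.26), among them the 3 chains of C1q, which starts the classical pathway. C1qa averaged 761 CPM in TAM 3, against 42.1 in TAM 1, 1335 in TAM 2, 25.9 in Monocyte 1, 78.2 in Monocyte 2 and 629 in Monocyte 3 (0.84), while C1qb (0.86) and C1qc (0.84) kept the same order with TAM 2 first and TAM 3 second over all cells. Lipid and lysosome genes had a median of 0.36, with 4 of 17 higher (Cd36, Cd63, Fabp5 and Ctsl) and 2 lower (Cd9 and Acp5).

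Haem and chemokine genes were mixed. Blvrb (1.06), a biliverdin reductase of haem breakdown, averaged 286 CPM in TAM 3, against 122 in TAM 1, 232 in TAM 2, 72.3 in Monocyte 1, 98.7 in Monocyte 2 and 150.1 in Monocyte 3. It was 1 of 2 among 11 measured iron and haem genes that were 1.5-fold higher, with 0 lower (median 0.42). Of 13 measured monocyte and lymphocyte chemokines 4 were higher and 3 lower (median 0.12). Ccl6 (0.75) averaged 4502 CPM in TAM 3, near the 4607 CPM of TAM 1 and above 1318 to 3231 CPM in the other 4 classes. Cxcl10 (-1.39), a T cell chemokine induced by interferon, averaged 367 CPM in TAM 3, against 233 in TAM 1, 677 in TAM 2, 211 in Monocyte 1, 3426 in Monocyte 2 and 296 in Monocyte 3, so Monocyte 2 again set the low fold. Ccl12 (-0.89), a monocyte chemoattractant, averaged 275 CPM in TAM 3, against 36.7 in TAM 1, 781 in TAM 2, 48.8 in Monocyte 1, 802 in Monocyte 2 and 908 in Monocyte 3.

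Sterol genes divided. Nr1h3 (0.98), which encodes the sterol sensor LXR alpha, and its targets Abca1 (0.94) and Abcg1 (0.62), cholesterol exporters, were highest of the 6 classes in TAM 3. Idi1 (-1.11), Fdps (-0.99) and Sqle (-0.99), enzymes of cholesterol synthesis, were lowest of the 6 in TAM 3. Abca1 averaged 86.0 CPM in TAM 3, against 45.6 in TAM 1, 82.5 in TAM 2, 14.0 in Monocyte 1, 17.5 in Monocyte 2 and 52.4 in Monocyte 3. Idi1 averaged 11.6 CPM in TAM 3, against 29.5 in TAM 1, 26.03 in TAM 2, 44.2 in Monocyte 1, 34.7 in Monocyte 2 and 19.2 in Monocyte 3. These 6 are all that passed 1.5-fold among 13 measured sterol genes, whose median was 0.04, so the list as a whole did not move to one side.

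Inflammatory cytokine genes had a median of 0.75, and 6 of 9 measured members were at least 1.5-fold higher and 0 lower. Cxcl2, a neutrophil chemokine and the most abundant member, averaged 4315 CPM in TAM 3, against 3238 in TAM 1, 1855 in TAM 2, 2481 in Monocyte 1, 1020 in Monocyte 2 and 1462 in Monocyte 3 (1.10). Il1b, the precursor of interleukin 1 beta, averaged 3255 CPM in TAM 3, against 1760 in TAM 1, 1284 in TAM 2, 3290 in Monocyte 1, 1845 in Monocyte 2 and 1270 in Monocyte 3 (0.78). TAM 3 and Monocyte 1 thus shared the top level of Il1b. Tnf, tumour necrosis factor, averaged 117 CPM in TAM 3, against 56.6 in TAM 1, 57.7 in TAM 2, 33.9 in Monocyte 1, 64.1 in Monocyte 2 and 37.5 in Monocyte 3 (1.15).

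NF-kB feedback genes behaved alike: 6 of 12 were higher and 0 lower, with a median of 0.65, and TAM 3 had the highest level of the 6 classes for 9 of the 12. Nfkbia, whose product holds NF-kB in the cytoplasm, averaged 1459 CPM in TAM 3, against 951 in TAM 1, 697 in TAM 2, 746 in Monocyte 1, 584 in Monocyte 2 and 379 in Monocyte 3 (1.11). Tnfaip3 (1.10), which encodes the ubiquitin-editing enzyme A20, and the inhibitors Nfkbid (0.99) and Nfkbiz (0.97) followed. Of the genes whose promoter letters are printed above, Cxcl1, Cxcl2 and Nfkbia were each highest of the 6 classes in TAM 3. Both lists were also higher in TAM 3 than in TAM 2, with list medians of 1.02 for inflammatory cytokines and 0.77 for NF-kB feedback.

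Immediate-early genes, which respond within minutes to stimulation and also to tissue digestion, were also higher as a list: 7 of 16 were at least 1.5-fold higher and 1 lower (median 0.55), and TAM 3 was highest of 6 for 10. Klf2 (1.00), Klf4 (0.85), Egr1 (0.77) and Egr2 (0.75) led, and the lower member was Jun (-0.63). The list summed to 11127 CPM in TAM 3, against 7576 in TAM 1, 7919 in TAM 2, 11305 in Monocyte 1, 9581 in Monocyte 2 and 7368 in Monocyte 3, where NF-kB feedback summed to 3245 CPM in TAM 3 and to 1805 in Monocyte 1. Across TAM 3 cells reduced to 2000 UMIs the immediate-early and NF-kB feedback lists had a Spearman rho of -0.02, and the part of tissue digestion in the NF-kB result was not tested. None of 11 measured heat shock genes passed 1.5-fold (median 0.10). Of 11 pattern receptor genes 2 were higher, Clec4e (0.86), which encodes the receptor Mincle, and Tlr2 (0.67).

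MHC class II genes had a median of 0.71, with 5 of 9 measured members higher and 0 lower. H2-Aa averaged 3704 CPM in TAM 3, against 4005 in TAM 1, 1684 in TAM 2, 413 in Monocyte 1, 1132 in Monocyte 2 and 1267 in Monocyte 3 (1.12). Cd74, the invariant chain that guides class II molecules, averaged 8697 CPM in TAM 3, against 9046 in TAM 1, 4140 in TAM 2, 1188 in Monocyte 1, 3272 in Monocyte 2 and 3580 in Monocyte 3 (1.03). H2-Eb1 (1.10), H2-Ab1 (1.06) and their activator Ciita (0.71) kept the order of TAM 1 first and TAM 3 second. The mice are BALB/c and the submitters' processing notes name the mm10 build, made from C57BL/6, so H2 levels are compared within this library only. All 12 MHC class I genes lay within 1.5-fold (median 0.16). The 7 markers of cDC2, dendritic cells that also carry class II, summed to 400 CPM in TAM 3, against 536 in TAM 1, 381 in TAM 2, 293 in Monocyte 1, 229 in Monocyte 2 and 351 in Monocyte 3, and their part in the class II result was not tested.

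Interferon genes split by type. Among 13 measured interferon-gamma genes 5 were higher and 1 lower (median 0.20). By class, the list median was 0.77 over TAM 1, 0.41 over TAM 2, 1.17 over Monocyte 1, -1.11 against Monocyte 2 and 1.27 over Monocyte 3, and it was 0.89 with Monocyte 2 left out of the reference, an alternative chosen after seeing the data. TAM 3 was thus above 4 of the 5 classes in this list. Cd274, which encodes PD-L1, averaged 93.1 CPM in TAM 3, against 59.1 in TAM 1, 47.3 in TAM 2, 21.0 in Monocyte 1, 80.3 in Monocyte 2 and 24.3 in Monocyte 3 (0.93). Irf1, a transcription factor of the interferon-gamma response, averaged 297 CPM in TAM 3, against 90.5 to 260 CPM in the other classes (0.92). The lower member was Socs1 (-0.83), an inhibitor of cytokine signalling.

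Type I interferon genes had the lowest median of all lists, -1.23 over 14 measured members, with 9 at least 1.5-fold lower and 0 higher. Ifit1 averaged 70.9 CPM in TAM 3, against 133 in TAM 1, 178 in TAM 2, 49.2 in Monocyte 1, 782 in Monocyte 2 and 106 in Monocyte 3 (-1.75). Isg15, a ubiquitin-like protein, averaged 568 CPM in TAM 3, against 490 in TAM 1, 985 in TAM 2, 560 in Monocyte 1, 4036 in Monocyte 2 and 794 in Monocyte 3 (-1.27). For both genes Monocyte 2 stood far above the rest, and TAM 3 lay in the range of the other 4 classes. By class, the list median was 0.27 over TAM 1, -0.70 against TAM 2, 0.47 over Monocyte 1, -2.89 against Monocyte 2 and -0.24 against Monocyte 3. With Monocyte 2 left out of the reference in the same way, it was -0.15. The low median is thus a difference from Monocyte 2 and, at a smaller size, from TAM 2. At 1000 UMIs Ifit1 was found in 6.57% of TAM 3 cells, against 19.1% of T cells and 6.85% of NK cells. T and NK cells can express Ifit1 themselves, so these shares do not gauge free RNA for it.

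**Figure D2:**
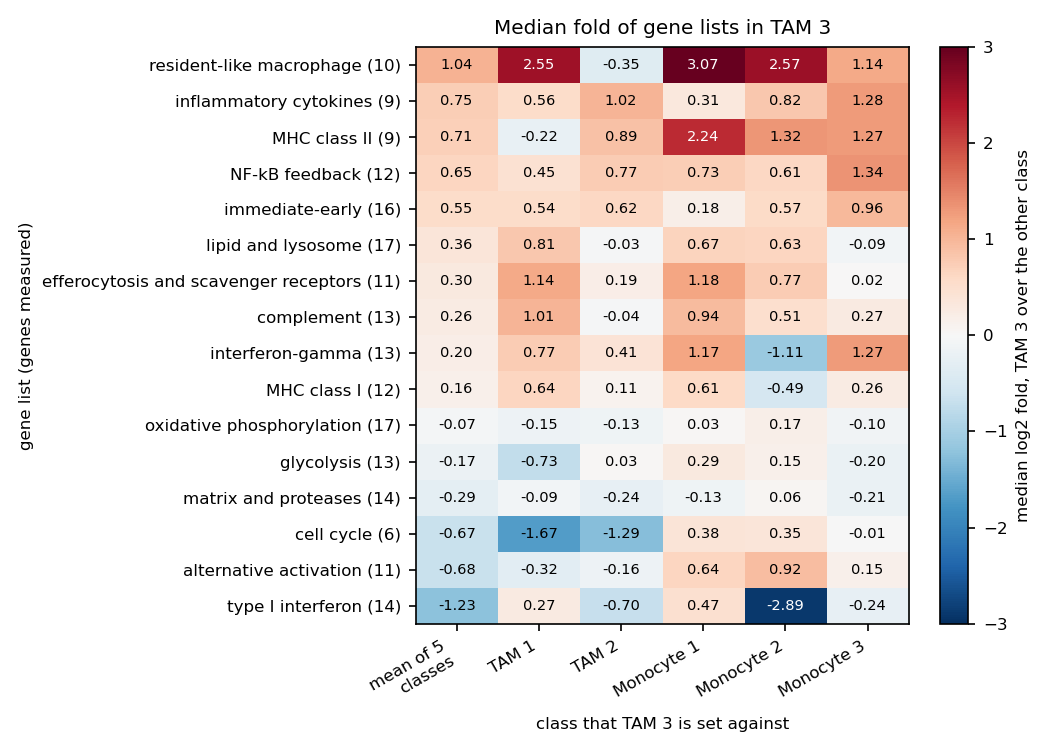
Median log2 fold of each gene list in TAM 3 against the mean of the other 5 classes and against each class. The resident-like list is 1.04 above the mean of the other classes but -0.35 against TAM 2, and the type I interferon list is at -1.23 overall through Monocyte 2 (-2.89).

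The 15 lowest genes, in at least 10% of the other monocytes and TAMs, were of a few kinds. Interferon-induced genes made up most of them: Ifit1bl1 (-2.69), Ifit3b (-2.33), Ifit1, Ifit3 (-1.72), Ifit2 (-1.67), Trim30c (-1.53), Cmpk2 (-1.53) and Isg20 (-1.53). Genes high in TAM 1 were Ear2 (-2.51), a ribonuclease, the lectin Mgl2 (-2.20), Fcrls (-1.95) and the lysozyme Lyz1 (-1.88). Lipg (-2.63), endothelial lipase, and Havcr2 (-1.62), which encodes the inhibitory receptor TIM-3, were highest in Monocyte 2. Of the 15, 10 were highest in Monocyte 2 and 4 in TAM 1, and TAM 3 was the lowest class for 1.

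That 1 gene was Spp1, which encodes osteopontin, a secreted matrix protein of many tumour macrophages. It averaged 193 CPM in TAM 3, against 252 in TAM 1, 818 in TAM 2, 283 in Monocyte 1, 617 in Monocyte 2 and 1636 in Monocyte 3 (-1.88), with a UMI in 22.0% of TAM 3 cells and 49.1% of the others. Of 14 measured matrix and protease genes 4 were higher and 6 lower (median -0.29), among them Thbs1 (-0.73), Fn1 (-0.68) and Vcan (0.66). The alternative activation list had a median of -0.68 with 2 of 11 higher (Mrc1 and Clec10a) and 7 lower. Retnla, a secreted product of interleukin 4 signalling, averaged 431 CPM in TAM 3, against 4311 in TAM 1, 563 in TAM 2, 33.6 in Monocyte 1, 57.5 in Monocyte 2 and 126 in Monocyte 3 (-1.23). By class, the list median was -0.32 against TAM 1, -0.16 against TAM 2, 0.64 over Monocyte 1, 0.92 over Monocyte 2 and 0.15 over Monocyte 3. Mrc1 (0.94), the mannose receptor, was highest of 6 in TAM 3, with 748 CPM against 85.3 to 743 CPM elsewhere. Arg1 (-0.90), the arginase gene, averaged 96.6 CPM in TAM 3, against 217 in TAM 1, 208 in TAM 2, 18.2 in Monocyte 1, 48.6 in Monocyte 2 and 435 in Monocyte 3.

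Cycling cells were few. A UMI of Mki67 or Top2a was found in 7.20% of TAM 3 cells (exact 95% interval 5.64% to 9.02%), against 19.9% of TAM 1, 20.3% of TAM 2, 4.32% of Monocyte 1, 5.73% of Monocyte 2 and 8.40% of Monocyte 3 cells. TAM 1 and TAM 2 were also the deepest classes, so their shares are not at matched depth. By level, 3 of 6 measured cell cycle genes were 1.5-fold lower and 0 higher (median -0.67). The list median was -1.67 against TAM 1 and -1.29 against TAM 2. It was 0.384 over Monocyte 1, 0.355 over Monocyte 2 and -0.011 against Monocyte 3. None of 13 glycolysis genes and none of 17 oxidative phosphorylation genes passed 1.5-fold.

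Across the 5355 counted genes, the log2 level in TAM 3 correlated most with TAM 2 (Pearson r 0.976), then moDC (0.954), Monocyte 3 (0.9502), Monocyte 1 (0.930), TAM 1 (0.924) and Monocyte 2 (0.915). These correlations are across genes of 1 library, which are not independent replicates, and with all cells reduced to 2000 UMIs TAM 2 remained first at 0.972, while moDC, with 112 of its 427 cells deep enough, came after Monocyte 3 at 0.929 against 0.947. The number of genes at least 2-fold higher and lower in TAM 3 followed the same order at its near end: 23 higher (0.43%) and 38 lower (0.71%) against TAM 2, and 190 (3.55%) and 48 (0.896%) against Monocyte 3. It was 270 (5.04%) and 60 (1.12%) against Monocyte 1, 262 (4.89%) and 94 (1.76%) against TAM 1, and 297 (5.55%) and 232 (4.33%) against Monocyte 2. Against Monocyte 2 the median of all counted genes was 0.18, so its higher genes are to be read relative to that shift.

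Within the pair of similar classes, the genes furthest above TAM 2 were Id3, Sgms2, Clec4e, Tppp3 and Cxcl1. Their UMI ratios of TAM 3 over TAM 2 were 2.95 for Id3 (95% counting interval 2.60 to 3.36), 3.60 for Sgms2 (2.68 to 4.86), 2.68 for Clec4e (2.50 to 2.87), 2.55 for Tppp3 (2.35 to 2.76) and 2.56 for Cxcl1 (2.41 to 2.73). Clec4e averaged 455 CPM in TAM 3 and 171 CPM in TAM 2. The genes furthest below TAM 2 were Gzma (-3.13), Nkg7 (-2.81), Gzmb (-2.66), Lipg (-2.47) and Prf1 (-2.45). All but Lipg are cytotoxic genes of NK and T cells. Gzma averaged 51.8 CPM in TAM 3 and 494 CPM in TAM 2, and NK cells of the library had a UMI of it in 94.1% of cells.

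The 8 NK cell markers summed to 87.1 CPM in TAM 3 and to 780 CPM in TAM 2, against 53.3 to 132 CPM in the other 4 classes, and the 8 T cell markers to 44.4 CPM in TAM 3 and 199 CPM in TAM 2. The part of NK or T cell RNA in the difference from TAM 2 was not tested. At 1000 UMIs Gzma was in 3.23% of TAM 3 cells, against 5.80% of T cells, which can express it themselves, and 91.6% of NK cells.

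Depth also separated TAM 3 from TAM 2. In cells with 4000 to 6000 UMIs alone (535 TAM 3 and 162 TAM 2 cells, a comparison chosen after seeing the data) 80 of the 5355 counted genes were 2-fold higher and 79 lower. Fewer cells widen the counting error, and its part in these 2 counts was not tested. These 162 are the shallow end of TAM 2, and they held more cytotoxic transcripts than TAM 2 as a whole: Gzma averaged 62.7 CPM in the matched TAM 3 cells and 1402 CPM in the matched TAM 2 cells (-4.38), Gzmb 19.9 and 373 CPM, and Prf1 8.72 and 176 CPM. The part of NK or T cell RNA in the matched values below was not tested either.

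The resident-like list turned direction at matched depth, with a median over TAM 2 of 0.31 against -0.35 over all cells, and 7 of its 10 measured members were then higher in TAM 3, against 3 over all cells. Cbr2 was at 0.20 in matched cells against -0.24 over all cells, Folr2 at 0.40 against -0.46, Gas6 at 0.52 against -0.50 and Pf4 at 0.21 against -0.78, while Ccl8 (-0.08), Maf (-0.05) and Stab1 (-0.57) stayed below TAM 2. Ednrb turned likewise, at 0.67 against -0.19. The complement list stood at 0.41 against -0.04, with C1qa at 0.62 against -0.81, and the alternative activation list at 0.61 against -0.16, with Retnla at 2.85 against -0.38. Whether TAM 3 or TAM 2 has more of these 3 lists therefore depends on which cells are compared. The matched TAM 2 cells differ from the rest of TAM 2 in more than depth, and the part of depth in the turn was not tested.

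The inflammatory and class II lists did not turn. Inflammatory cytokines stood at 1.46 over TAM 2 in matched cells against 1.02 over all cells, with 6 of 9 members further above TAM 2. Among them Cxcl1 was at 2.46, Cxcl2 at 2.21 and Tnf at 1.61, whereas Il1b was nearly the same (1.33 against 1.34) and Osm smaller (0.47 against 0.65). NF-kB feedback stood at 0.77 under both, with 7 of 12 members further above TAM 2, Nfkbia at 1.52 against 1.06 and Nfkbie at 0.70 against 0.95. MHC class II stood at 1.41 against 0.89, and type I interferon at -0.97 against -0.70 with all 14 members below TAM 2 under both. Id3 (2.04), Clec4e (1.24) and Spp1 (-1.98) kept their direction.

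**Figure D3:**
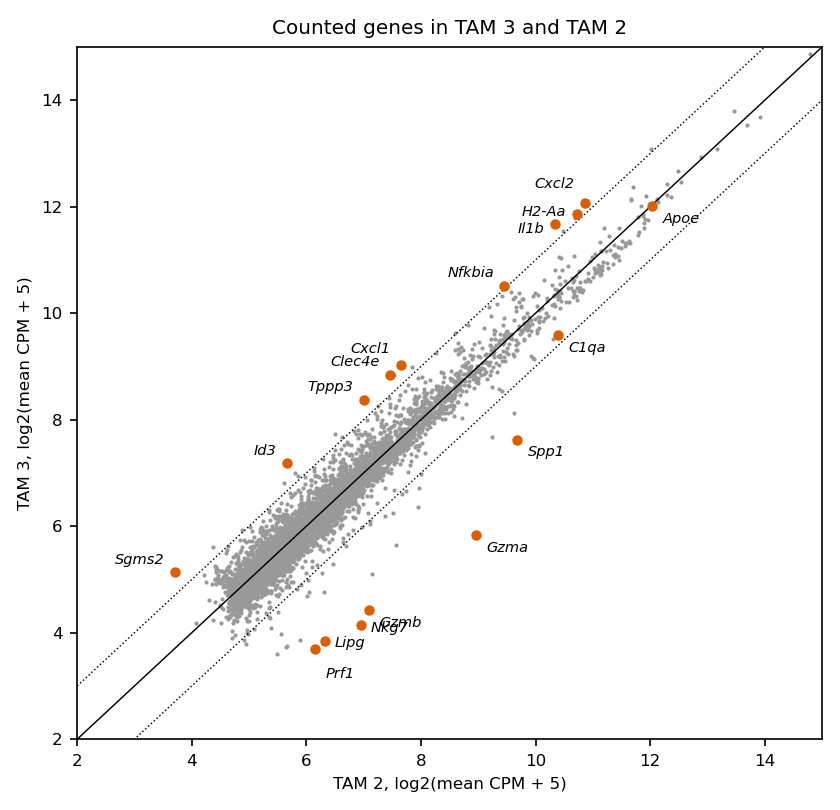
Level of the 5355 counted genes in TAM 3 (vertical axis) and TAM 2 (horizontal axis), as log2(mean CPM + 5), with the line of equal level and dotted lines at 2-fold. Id3, Sgms2, Clec4e, Tppp3 and Cxcl1 lie above the upper line, and Gzma, Gzmb, Nkg7, Prf1, Lipg and Spp1 below the lower line.

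TAM 3 was not uniform. Summed per cell, the resident-like list had a median of 1924 CPM in TAM 3 cells with a 10th to 90th percentile of 432 to 9629 CPM, the inflammatory cytokine list a median of 6034 CPM (958 to 20203), and the MHC class II list a median of 19674 CPM (3153 to 45025). The NF-kB feedback list was narrower, with a median of 2883 CPM (856 to 6244). Above the TAM 3 median of the NF-kB list lay 38.3% of TAM 1, 19.1% of TAM 2, 19.8% of Monocyte 1, 16.0% of Monocyte 2 and 7.19% of Monocyte 3 cells, so the classes overlapped.

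Single genes differed in how widely they were spread over the cells. H2-Aa had a UMI in 86.2%, Il1b in 82.7% and Cxcl2 in 82.4% of TAM 3 cells, and Cxcl2 ran to 68105 CPM in its highest cell from a median of 1992 CPM. C1qa, Cxcl1 and Id3 had a median of 0, and the 5% of cells with the most held 43.9% of the summed C1qa level, 43.6% of that of Cxcl1 and 44.8% of that of Id3.

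Across the 959 TAM 3 cells, each reduced to 2000 UMIs, cells with more resident-like UMIs had fewer of MHC class II (Spearman rho -0.37) and of Il1b (-0.34) and more of complement (0.38). Inflammatory cytokines and NF-kB feedback went together (0.55). At 1000 UMIs the coefficients were -0.33 for resident-like with MHC class II, -0.32 for resident-like with Il1b, 0.28 for resident-like with complement and 0.46 for inflammatory cytokines with NF-kB feedback. These coefficients describe cells of 1 library that share its free RNA, and each cell's UMIs add to a fixed sum. Resident-like and inflammatory cytokine levels were only weakly related (-0.12).

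**Figure D4:**
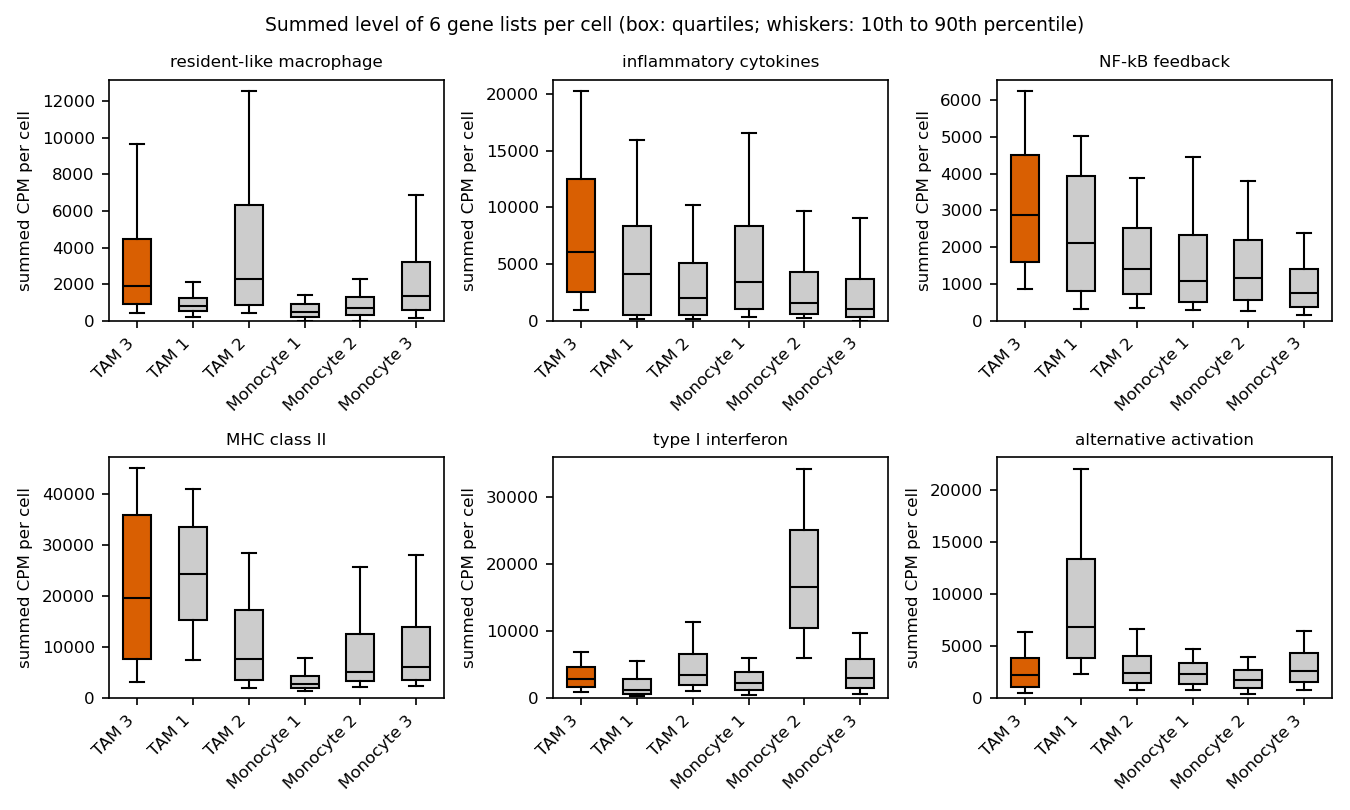
Per-cell summed CPM of 6 gene lists in TAM 3 and the other CT26 monocyte and TAM classes (box, quartiles with the median; whiskers, 10th to 90th percentile). TAM 3 has the highest median of the 6 classes for inflammatory cytokines and NF-kB feedback, and the ranges of the classes overlap except for much of the type I interferon list between TAM 3 and Monocyte 2.

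The 15 leading genes were then read in the monocyte and macrophage classes of the 5555 melanomas, whose cells had no part in defining CT26 TAM 3. In NK-depleted Ptgs-/- tumours 7 of the 15 were highest in the class named Monocytes 1 and in Ptgs-/- tumours 8. In Ptgs+/+ tumours Monocytes 1 and Monocytes 2 were each highest for 5, and without the cells that hold a UMI of another lineage's markers Monocytes 1 for 5 and Monocytes 2 for 8. The class that is also named TAM 3 there was highest for 1, 2 and 1 of the 15, and the 1 gene in Ptgs+/+ tumours was Serpina3g at 0.901 CPM, a level too low to rank the classes. TAM 1 and TAM 2 of the 5555 tumours were highest for none. The class of the same name was thus not the one highest for most of these genes.

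The leading genes went to different 5555 classes by kind. In all 3 libraries Cbr2, Ednrb, Psd3, Rgl1 and Selenop were highest in Monocytes 1. Cxcl1 and Sgms1 were so in the class named Mono Mac, and Stxbp6 and Tnfaip2 in Monocytes 2. Mono Mac held only 57 cells in Ptgs+/+ tumours. Its Cxcl1 there (137 CPM) was near the 124 CPM of TAM 3, and its Sgms1 (130 CPM) near the 117 CPM of Monocytes 2. Without the cells that hold a UMI of another lineage's markers, Mono Mac of Ptgs+/+ tumours was highest for 1 of the 15 leading genes, against 3 with them. Selenop averaged 1225 CPM in Monocytes 1 of NK-depleted Ptgs-/- tumours, 1696 CPM in Ptgs-/- and 1133 CPM in Ptgs+/+ tumours, and at most 825, 771 and 312 CPM in the other classes of each library. Cbr2 averaged 294, 336 and 353 CPM in Monocytes 1 in the same order. Cxcl1 in Mono Mac averaged 108 CPM in NK-depleted Ptgs-/-, 50.02 CPM in Ptgs-/- and 137 CPM in Ptgs+/+ tumours, below its 513 CPM in CT26 TAM 3, though line, strain and day differ between the tumours. Serpina3g, with 118 CPM in CT26 TAM 3, reached at most 13.6 CPM in any 5555 class. Cd36 was highest in TAM 3 of both Ptgs-/- libraries, with 537 CPM after NK depletion and 452 CPM without it, and in TAM 4 of Ptgs+/+ tumours, with 76.8 CPM.

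Over whole profiles, each gene centred on its mean over the classes of its own tumour, likeness to CT26 TAM 3 was weak. Spearman rho across 5354 genes was 0.15, 0.21 and 0.21 for the 5555 class named TAM 3 (NK-depleted Ptgs-/-, Ptgs-/- and Ptgs+/+) and 0.15, 0.15 and 0.21 for Monocytes 1. It was -0.16, -0.18 and -0.12 for Monocytes 2. Coefficients of this size separate no class, and TAM 2 (-0.15) and TAM 4 (-0.16) of Ptgs+/+ tumours lay below Monocytes 2.

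**Figure D5:**
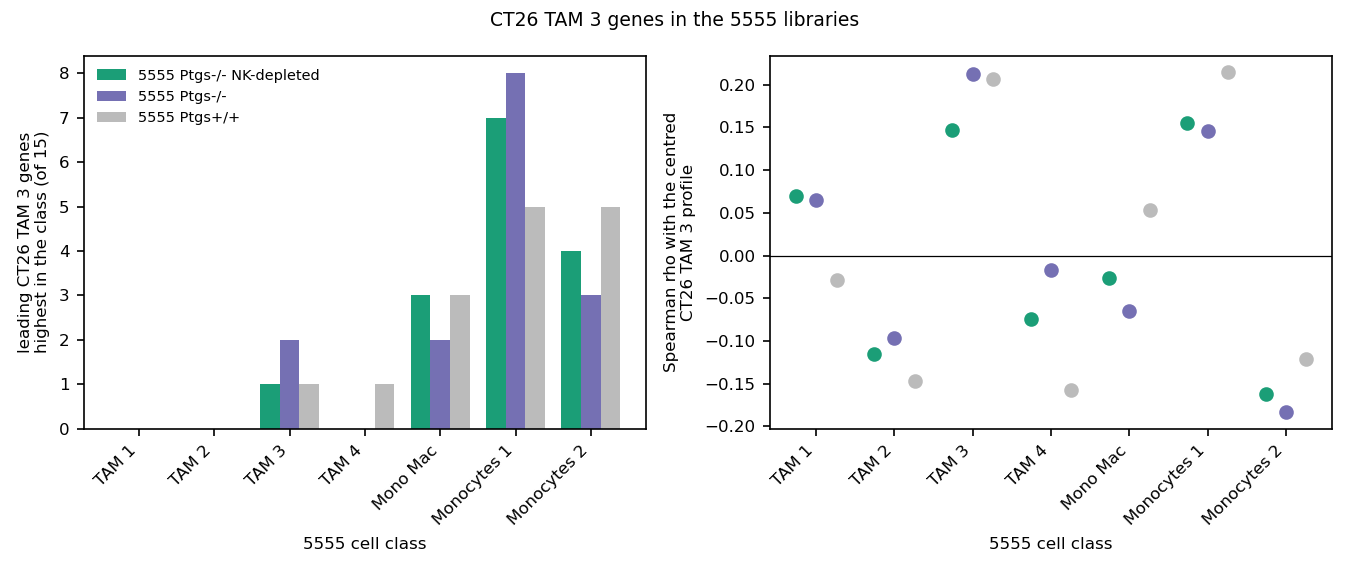
Number of the 15 leading CT26 TAM 3 genes that are highest in each 5555 class (left) and Spearman rho of each class with the centred CT26 TAM 3 profile (right), for NK-depleted Ptgs-/-, Ptgs-/- and Ptgs+/+ tumours. Monocytes 1 is highest for 7, 8 and 5 of the 15, level with Monocytes 2 in Ptgs+/+ tumours, and the highest rho is 0.21.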

How the data were processed

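The deposited matrices of the authors hold 1 log2 value per cell and gene. Partek, the build mm10 and Cell Ranger 3.0.2 are listed in the submitters' processing notes. Raised back, the values summed to the same total in every cell, so they are log2(CPM + 1), and 99.9% of them were whole UMIs within 0.1 UMI plus 0.01%. In CT26, 14 symbols held parts of a UMI and get no count. Cell classes are the authors' annotation. In 5555, 54 cells without a single annotated barcode were left out. No cells were clustered again, no doublet caller was run and free RNA was not subtracted. The cultured bone marrow cells were not used here. Results for a few genes are not reported here.

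The members and gene lists were chosen with earlier results of these data known. Text names the 15 highest and 15 lowest genes, the 2 to 4 members of each list furthest from 0 among those in at least 10% of TAM 3 or of the other cells, the 5 highest and 5 lowest against the most similar class, and cell type markers. Further members, named to account for a count of 5 or fewer or for a place in an order, were chosen after their values were seen. Intervals are exact 95% intervals of counts (Clopper-Pearson for shares, conditional binomial for UMI ratios) and cover counting error only. Python 3.11.15, NumPy 2.4.6, SciPy 1.17.1, pandas 2.3.3 and matplotlib 3.10.9 were used, and the fold computation was tested on simulated data.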

Additional observations from a re-analysis of the deposited data

How the results depend on the processing

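The TAM 3 share was 10.67% over all annotated CT26 cells and 19.98% of monocytes and TAMs without the 5% of cells with the most genes. Genes 2-fold higher numbered 49 and 2-fold lower 54. With a pseudocount of 20 CPM they were 23 and 32. The difference of mean log2 values gave 117 higher. With a detection filter of 5% there were 82 lower, and with none 108. List medians past 1.5-fold numbered 7 of 29, but 4 with a pseudocount of 20 CPM and 3 against TAM 1 and TAM 2 alone. Against that reference 46 genes were higher and 51 lower, of which 12 and 21 were the same genes, and 6 of the 15 leading and 9 of the 15 lowest genes stayed past 2-fold. Leaving Monocyte 2 out of the reference (chosen after seeing the data) gave 48 higher and 36 lower, with 29 and 30 the same genes, and 9 of the 15 lowest stayed past 2-fold. Over 12 settings the resident-like median ran over 0.37 to 1.15, inflammatory cytokines 0.59 to 1.15, NF-kB feedback 0.47 to 0.88, MHC class II 0.224 to 1.496, type I interferon -1.25 to -0.15 and alternative activation -0.89 to -0.05, each with 1 sign throughout. TAM 1 was in the reference of every setting, so the range of alternative activation does not show how far it depends on that class. In cells of 4000 to 6000 UMIs 80 of the 5355 counted genes were higher and 79 lower than in TAM 2. At 1000 UMIs rho was 0.457 for inflammatory cytokines with NF-kB feedback and 0.285 for resident-like with complement. Of the list medians under all alternatives 282 moved by no more than a yardstick and 66 by more. That yardstick was the median, over the list's members, of the half-width of each gene's own UMI ratio interval. Those ratios were taken against the pooled other cells, so the yardstick is not the counting error of the list median. Of the named genes' folds, 266 stayed past 2-fold in their direction and 34 fell below it. The cause was not tested. No paired analysis was possible because each group is 1 library.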
